A study of Mus musculus with 8 samples.

Results

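The IL-1 family genes Il1a, Il1b, Il1rn, Il1r1, Il1rap, Il18 and Il33 and the TNF genes Tnf, Tnfrsf1a and Tnfrsf1b were examined in primary mouse hepatocytes cultured after a high fat diet (HFD) or normal chow. The genes were taken as those whose symbol in the platform annotation is one of these names, which gave 10 genes of 20289 named on the arrays and 26 probes of 45281. The arrays comprised 4 from hepatocytes of HFD-fed mice (numbered 8, 10, 11 and 12) and 4 from hepatocytes of chow-fed mice (numbered 1, 2, 3 and 5), all from C57Bl/6 males with age and time on diet not given here. All cultures were started in M199 with 10% serum, the growth factor EGF at 1.5 nM, insulin at 100 nM and the synthetic glucocorticoid dexamethasone at 400 nM. After 4 h this was exchanged for the same medium with 10 nM insulin, and RNA was harvested 24 h later, so the values describe cultured cells and not fresh liver. The design text calls the arrays biological replicates, but it does not say whether each stands for 1 mouse, so the p-values measure the spread between these arrays.

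The cytokines IL-1α and IL-1β, encoded by Il1a and Il1b, act by binding the receptor IL1R1, which then recruits the accessory protein IL1RAP and signals through MyD88 and IRAK kinases to NF-kB. The product of Il1rn, the IL-1 receptor antagonist, occupies IL1R1 without recruiting IL1RAP and so blocks both ligands. TNF signals through a widely expressed receptor, encoded by Tnfrsf1a, and one more restricted to immune and endothelial cells, encoded by Tnfrsf1b. In liver, macrophages are a main source of IL-1β and TNF, and hepatocytes answer these cytokines with acute phase proteins.

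Levels are the deposited log2 values, and differences are HFD minus chow on that scale, so a difference of 1 would be a doubling. A probe was called above background when its mean over the 8 arrays exceeded 7.54, the limit below which 95% of 1525 probes for olfactory and vomeronasal receptor genes lay. Of the 26 probes 15 were above that limit, and 7 of the 10 genes were represented by such a probe. Adjusted p-values are Benjamini-Hochberg values from a limma fit over all 20289 genes, with a threshold of 0.05. The promoters of the 3 genes whose HFD arrays all lay below their chow arrays are shown here, since these genes carry the results. Each runs from 250 bases before to 50 after an annotated RefSeq transcription start (GRCm38.p6), and capitals mark a match to a searched motif. The Il1rap promoter lies at chr16:26581455-26581754 on the plus strand, the first of 3 Il1rn promoters at chr2:24336610-24336909 on the plus strand, and the Il18 promoter at chr9:50554450-50554749 on the plus strand.
Il1rap promoter: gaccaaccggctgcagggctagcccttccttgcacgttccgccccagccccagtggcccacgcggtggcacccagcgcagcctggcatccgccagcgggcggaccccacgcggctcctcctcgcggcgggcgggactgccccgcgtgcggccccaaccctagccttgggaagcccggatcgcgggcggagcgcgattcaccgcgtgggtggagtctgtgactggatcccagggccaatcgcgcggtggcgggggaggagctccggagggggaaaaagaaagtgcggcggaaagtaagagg
Il1rn promoter: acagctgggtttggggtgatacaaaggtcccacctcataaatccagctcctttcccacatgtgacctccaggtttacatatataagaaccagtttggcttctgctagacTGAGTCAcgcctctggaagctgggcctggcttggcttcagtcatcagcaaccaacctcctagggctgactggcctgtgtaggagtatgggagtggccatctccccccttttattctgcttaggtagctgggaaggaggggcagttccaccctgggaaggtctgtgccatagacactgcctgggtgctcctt
Il18 promoter: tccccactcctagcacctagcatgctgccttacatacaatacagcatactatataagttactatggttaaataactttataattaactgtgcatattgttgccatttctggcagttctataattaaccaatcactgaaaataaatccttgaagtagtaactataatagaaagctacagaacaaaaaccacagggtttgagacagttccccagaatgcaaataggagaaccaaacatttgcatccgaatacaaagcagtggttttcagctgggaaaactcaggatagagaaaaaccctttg

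On both strands the motifs for NF-kB (GGGA and TTCC with any 2 bases between), TTGCNNAA (C/EBP), TGANTCA (AP-1) and GAGGAAGT (PU.1) were searched, with no overlap between them in these windows. The Il1rn window held the AP-1 match TGAGTCA from 141 to 135 bases before the start, and the Il1rap and Il18 windows and the other two Il1rn windows held none of these letters. Which Il1rn start the measured transcript uses was not determined. All 10 genes had a promoter entry, with 14 windows in all, of which 2 held the AP-1 letters, 2 the C/EBP letters and 10 none of the 4 motifs. Over all 32851 promoter windows of the same length, 1.47% held the NF-kB letters, 10.8% the C/EBP letters, 7.81% the AP-1 letters and 3.20% the PU.1 letters.

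Across the 10 genes, Il1rap and Il1rn fell in HFD cultures and none passed the limma threshold in the other direction. A further gene, Il18, was lower on every HFD array than on any chow array but missed the threshold. The ligand genes Il1a, Il1b and Tnf lay at background in both diets. The 2 called of 10 compare with 2.57% of all 20289 genes called lower and 1.47% called higher in HFD. Above background were 7 of the 10 genes and 10806 of the 20289. The shares over all genes thus include relatively more genes in which a change could hardly be seen. Every HFD array lay below every chow array for 3 of the 10 genes, against 6.47% of all genes. At an unadjusted p under 0.05 there were 3 of the 10, all lower in HFD, where 8.32% of all genes were lower by that measure. The median difference of the 10 genes was -0.06, against -0.0046 over all genes.

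**Figure D1:**
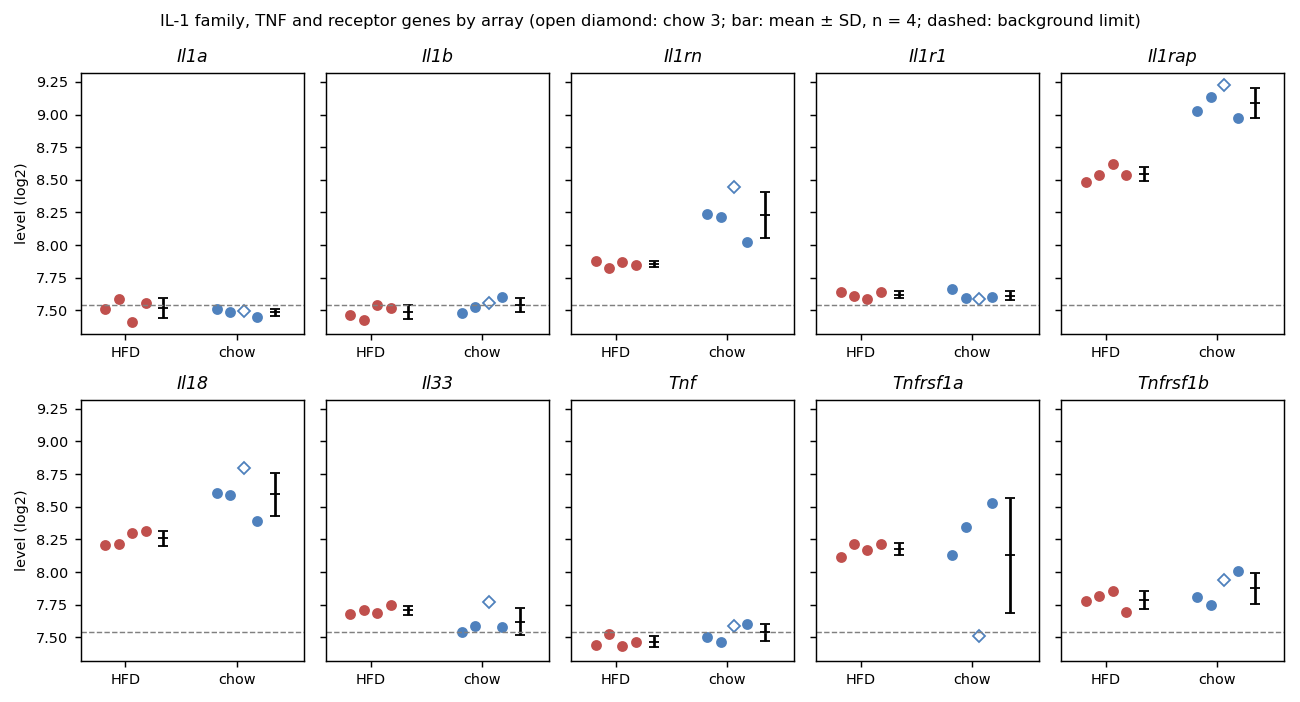
Level (log2) of the probe that represents each of the 10 genes, 1 point per array, HFD left and chow right, with mean ± SD (n = 4) as black bars, the third chow array as an open diamond and the background limit of 7.54 as a dashed line. The HFD points of Il1rap, Il1rn and Il18 lie below all chow points, Il1a, Il1b and Tnf lie around the limit, and the third chow array of Tnfrsf1a lies at 7.51.

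One chow array stood apart. Across probes, chow 3 had a Pearson correlation of 0.946 to 0.951 with the other 7 arrays, and those 7 had 0.989 or more among themselves. Without it 1861 genes in place of 820 passed the threshold, and among the 10 genes 4 did, with Il18 lower and Il33 higher in addition. Of all genes 4.34% were then called lower and 4.84% higher in HFD. The median difference without it was -0.06 for the 10 genes and 0.0039 for all genes. Of 15 hepatocyte markers 13 were above background. The summed linear level of the 15 was 138365 to 154362 on HFD and 141800 to 157584 on chow arrays. This sum was weighted to markers near the top of the arrays' range. Among these were Apoa1 (14.61 in HFD, 14.62 in chow) and Apoa2 (14.73 in HFD, 14.75 in chow). The overlap of the sums therefore does not show an equal hepatocyte content.

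Il1rap, the accessory chain without which IL1R1 does not signal and which the IL-33 receptor also uses, showed the clearest difference. Its level was 8.49, 8.54, 8.62 and 8.54 on HFD arrays 8, 10, 11 and 12, against 9.03, 9.14, 9.23 and 8.97 on chow arrays 1, 2, 3 and 5. The groups did not overlap, and the HFD arrays lay closer together than the chow arrays. Il1rap averaged 8.54 ± 0.06 in HFD and 9.09 ± 0.11 in chow cultures (SD, n = 4 each). The difference was -0.55, a ratio of 0.685, with an SE of 0.059 (adjusted p = 0.0023 by limma). Its 95% confidence interval was -0.68 to -0.41. An exact 2-sided permutation test gave p = 0.0286, its lower bound with 4 arrays a side. Every gene whose groups do not overlap gets this value, which is not adjusted over genes. The call was kept under all 15 alternatives, with adjusted p-values from 0.00031 to 0.0136, and the difference was -0.50 without chow 3.

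The 6 Il1rap probes did not move alike. Probe 2, which was designed on the same transcript record as the representing probe, read 8.42 to 8.51 in HFD and 8.95 to 9.18 in chow, a difference of -0.57 (adjusted p = 0.0015 over all 45281 probes). Probe 3, from another transcript record, read 8.21 to 8.50 in HFD and 8.63 to 8.93 in chow, a difference of -0.43 with no overlap between the groups (adjusted p = 0.0501; 0.0228 without chow 3). The other 3 probes were dim, between 7.59 and 7.72 on average, and their differences were -0.14, 0.04 and -0.06. Both transcript records had bright and dim probes, and within each record the bright probes fell more than the dim ones. With the mean of all its probes in place of the brightest, Il1rap differed by -0.26 (adjusted p = 0.00429). Over all 26 probes 2 were called lower, both of Il1rap, against 1.35% of all probes called lower and 0.740% called higher. Every HFD array lay below every chow array for 5 of the 26, against 4.68% of all probes. Without chow 3 the threshold was passed by 5 lower probes and 1 higher probe of the 26, against 2.99% of all probes called lower and 2.98% called higher.

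**Figure D2:**
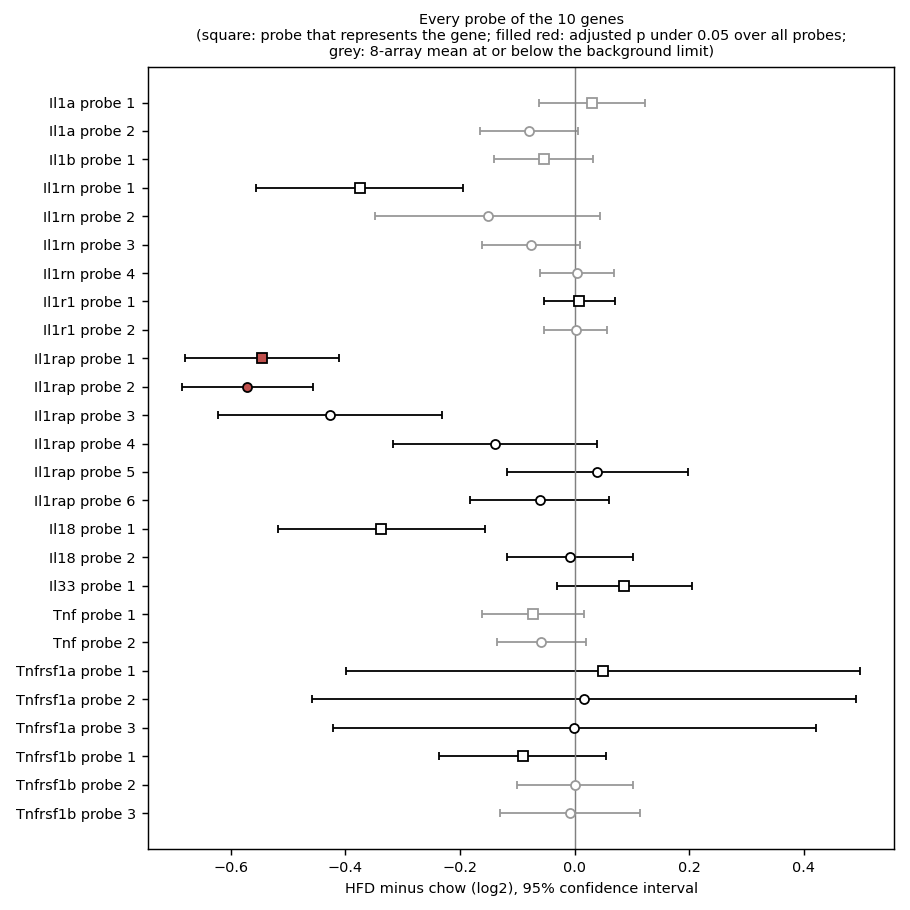
Difference of HFD minus chow (log2) with its 95% confidence interval for each of the 26 probes, numbered within a gene from the brightest. Both probes filled in red belong to Il1rap and passed the threshold over all probes, while the 3 Tnfrsf1a probes have the widest intervals.

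Il1rn, which encodes the IL-1 receptor antagonist, fell in HFD cultures by a smaller amount. It read 7.88, 7.82, 7.87 and 7.85 on HFD arrays 8, 10, 11 and 12, against 8.24, 8.21, 8.45 and 8.03 on chow arrays 1, 2, 3 and 5. All HFD values lay within a narrow band below the lowest chow value, and chow 3 was the highest. Il1rn averaged 7.86 ± 0.02 in HFD and 8.23 ± 0.17 in chow (SD, n = 4 each), a difference of -0.37 with an SE of 0.079 and a 95% confidence interval of -0.56 to -0.19 (adjusted p = 0.0402 by limma; exact permutation p = 0.0286). Leaving out chow 1, chow 2 or any HFD array ended this call (adjusted p from 0.0992 to 0.128), whereas it was kept without chow 3 (-0.30, adjusted p = 0.00855) and without chow 5 (-0.44, adjusted p = 0.0106). Adjusted over all probes, its p was 0.0606. Of its 4 probes 1 was above background, and the others differed by -0.15 to 0.0037. The mean of all 4 gave -0.15 for the gene (adjusted p = 0.0308).

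Il18 encodes a relative of IL-1β that is made as a precursor and cleaved by caspase-1. It read 8.20, 8.22, 8.30 and 8.31 on HFD arrays 8, 10, 11 and 12, against 8.61, 8.59, 8.80 and 8.39 on chow arrays 1, 2, 3 and 5. The lowest chow array, chow 5, stood 0.08 above the highest HFD array. Il18 averaged 8.26 ± 0.06 in HFD and 8.60 ± 0.16 in chow (SD, n = 4 each). The difference of -0.34 (SE 0.079, 95% confidence interval -0.52 to -0.16) missed the threshold (adjusted p = 0.0617 by limma). The unadjusted exact permutation p was 0.0286, as for any gene whose groups do not overlap. Il18 passed by limma without chow 3 (-0.27, adjusted p = 0.0231) and without chow 5 (-0.41, adjusted p = 0.0143). The second Il18 probe, at 7.62 in HFD and 7.63 in chow, differed by -0.0081.

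**Figure D3:**
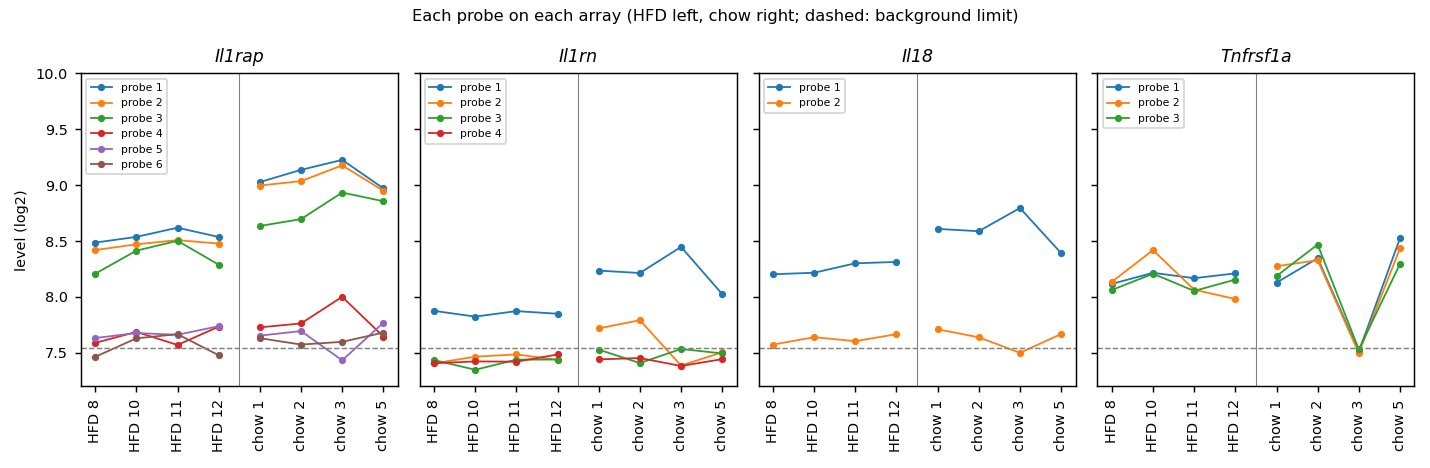
Level (log2) of every probe of Il1rap, Il1rn, Il18 and Tnfrsf1a on each array, HFD arrays left and chow arrays right, with the background limit of 7.54 dashed. The bright probes of Il1rap, Il1rn and Il18 are lower on all HFD arrays, and all 3 Tnfrsf1a probes drop to the limit on chow 3.

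Il33 encodes a nuclear cytokine of endothelial and epithelial cells that is released on damage. It read 7.68 to 7.75 on HFD arrays, against 7.54, 7.58 and 7.58 on chow arrays 1, 2 and 5 and 7.77 on chow 3. The groups overlapped through chow 3 alone. The difference was 0.09 (95% confidence interval -0.03 to 0.21, adjusted p = 0.566 by limma), or 0.14 without chow 3 (adjusted p = 0.0306), from 1 probe near background.

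The ligand genes Il1a, Il1b and Tnf gave no level clearly above background in either diet, so a change in them could hardly be seen. Il1a read 7.41 to 7.59 in HFD and 7.45 to 7.51 in chow. Il1b, measured by 1 probe, read 7.43 to 7.54 in HFD and 7.48 to 7.60 in chow. Tnf read 7.44 to 7.53 in HFD and 7.47 to 7.60 in chow. Their differences were 0.03 for Il1a (95% confidence interval -0.07 to 0.13), -0.05 for Il1b (-0.14 to 0.04) and -0.07 for Tnf (-0.16 to 0.02), with adjusted p-values of 0.854, 0.661 and 0.514 by limma. A level at background does not show that the RNA was missing.

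The receptor gene Il1r1 was just above background, at 7.59 to 7.64 in HFD and 7.58 to 7.66 in chow. Its difference was 0.008 (95% confidence interval -0.06 to 0.07, adjusted p = 0.956 by limma). Tnfrsf1a, the gene of the main TNF receptor of hepatocytes, read 8.12, 8.22, 8.17 and 8.21 on HFD arrays 8, 10, 11 and 12, against 8.13, 8.35, 7.51 and 8.53 on chow arrays 1, 2, 3 and 5. Chow 3 lay at background on all 3 probes (7.50, 7.51 and 7.53), where the other chow arrays lay between 8.13 and 8.53. The difference was 0.05 (95% confidence interval -0.40 to 0.50, adjusted p = 0.960), and -0.16 without chow 3 (-0.34 to 0.03, adjusted p = 0.378), so its direction rested on that array. Tnfrsf1b read 7.69 to 7.86 in HFD and 7.75 to 8.01 in chow, a difference of -0.09 (95% confidence interval -0.24 to 0.06, adjusted p = 0.652).

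Markers of macrophages and sinusoidal endothelial cells were also measured in the cultures, and part of them fell in HFD. In bulk RNA, fewer cells of a type and less RNA per cell cannot be told apart. Over all genes 2.57% were called lower in HFD, or 4.34% without chow 3. Of 21 macrophage and Kupffer cell markers 8 fell in HFD cultures, or 12 without chow 3. The median of this list was -0.51, against -0.0046 over all genes. The summed linear level of these 21 markers was 6039 to 7067 on HFD and 10911 to 11933 on chow arrays. Among them, Cd5l, Timd4, Ptprc and Itgam were at background. Fcer1g, an Fc receptor chain, fell by 1.84 (adjusted p = 0.000283), the lysosomal protein gene Laptm5 by 1.46 (adjusted p = 0.000593) and the macrophage receptor gene Adgre1 by 1.11 (adjusted p = 0.000319; -0.69 with the mean of its probes). Not all members moved this way, as the Kupffer cell receptor gene Clec4f differed by 0.12 and the complement receptor gene Vsig4 by -0.35 (adjusted p = 0.651 for both; -0.16 for Vsig4 without chow 3). Of 14 sinusoidal endothelial markers 5 fell, or 9 without chow 3, when 1, Clec4g, rose, with a median of -0.24. The scavenger receptor gene Stab1 differed by 0.22 (adjusted p = 0.634). Fcgr2b fell by 1.37 (-0.40 with the mean of its probes), Lyve1 by 0.80 and Cdh5 by 0.78, the last of these no longer called without chow 2, chow 5 or any 1 of the HFD arrays (largest adjusted p 0.125). The summed level of these markers was 3058 to 3312 on HFD and 3820 to 4636 on chow arrays.

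**Figure D4:**
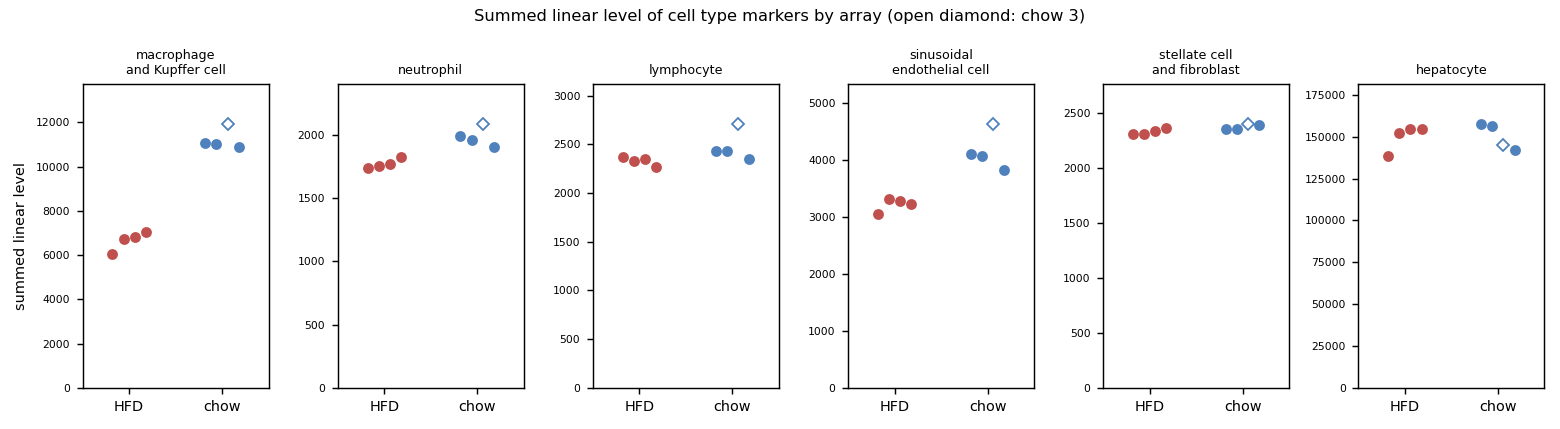
Summed linear level (2 to the power of the log2 value, added over the markers of a cell type) on each array, HFD left and chow right, chow 3 as an open diamond, axes starting at 0. Macrophage, sinusoidal endothelial and neutrophil sums are lower on all HFD arrays, while hepatocyte, lymphocyte and stellate cell and fibroblast sums overlap. In the neutrophil sum 7 of 10 markers lay at background, and only S100a8 was called.

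Among the chow arrays, chow 3 had the highest and chow 5 the lowest value of Il1rap, Il1rn and Il18, and the same held for the summed levels of 7 of the 13 pathway and marker lists. These were the macrophage, endothelial, neutrophil, lymphocyte, inflammasome, IL-1 receptor signalling and TNF receptor signalling lists. Single macrophage markers differed in order. Cd14 kept it (11.47 on chow 3, 11.05 on chow 5), but Cd68 (10.42 and 10.61) and Lyz2 (7.49 and 10.21) did not. Fcer1g, Laptm5 and Adgre1 did not have it either. The neutrophil and lymphocyte lists lay mostly at background. Their brightest markers in chow, S100a8 (8.88 and 8.05) and Cd8b1 (10.07 and 9.50), had this order. Of 10806 single genes above background 22.1% had this order, which is a share of genes and not of summed lists. A linear sum is weighted to its brightest genes, and chow 3 stood apart from the other arrays. The part of macrophages and endothelial cells in the lower Il1rap, Il1rn and Il18 was not tested. Of 10 neutrophil markers 7 were at background and 1 fell, S100a8 (-1.07, adjusted p = 0.00836), which macrophages can also express. S100a9 lay at background in both diets and differed by 0.04 (adjusted p = 0.728 by limma). The summed level of the 10 neutrophil markers was 1739 to 1822 on HFD and 1904 to 2085 on chow arrays. With most of these markers at background, the lower sum does not show a lower level of neutrophil markers in general. No lymphocyte marker of 10 and no stellate cell or fibroblast marker of 13 passed by limma (0 and 1 at an unadjusted p under 0.05), with 8 and 9 of them at background. The smallest p-values there belonged to Cd8b1 (-0.23) and Ms4a1 (-0.04) and to Reln (-0.11) and Acta2 (-0.08). The summed levels were 2271 to 2375 on HFD and 2353 to 2711 on chow arrays for lymphocyte markers, and 2310 to 2365 on HFD and 2359 to 2404 on chow arrays for stellate cell and fibroblast markers. Of the hepatocyte markers 1 rose, Cps1, the first enzyme of the urea cycle (0.51, adjusted p = 0.0105).

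Other genes of the pathways came from 7 lists with 133 entries, of which 120 had a probe. Of these, 9 fell and 1 rose. Over all 20289 genes 2.57% were called lower and 1.47% higher, or 4.34% and 4.84% without chow 3. The list counts below stand beside these shares. Of 9 other IL-1 family ligands, receptors and inhibitors none passed by limma, nor at an unadjusted p under 0.05 (0), and 4 of them, the decoy receptor gene Il1r2 included, lay at background. The median difference of this list was -0.02, or -0.0056 without chow 3. The smallest p-values belonged to Il18bp, the gene of the soluble IL-18 inhibitor, at 7.90 ± 0.05 in HFD and 7.98 ± 0.10 in chow (-0.08, adjusted p = 0.614), and to Sigirr, an inhibitory receptor gene, at 7.60 ± 0.09 in HFD and 7.54 ± 0.05 in chow (0.06, adjusted p = 0.687).

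Of 16 IL-1 receptor signalling genes 1 fell, Irak3, which encodes an inactive kinase that dampens IL-1 and Toll-like receptor signalling and is known mainly from macrophages. Irak3 read 8.16, 8.34, 8.22 and 8.48 on HFD arrays 8, 10, 11 and 12, against 9.22, 9.13, 9.59 and 8.96 on chow arrays 1, 2, 3 and 5. The groups were well apart, with chow 3 the highest and chow 5 the lowest chow array. The difference was -0.92 (SE 0.133, adjusted p = 0.00881 by limma), and it kept its call under all 15 alternatives. The list median was -0.08, and the part of macrophages in the lower Irak3 was not tested. All 16 of these genes were above background, unlike Il1a, Il1b and Tnf.

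Of 14 inflammasome, processing and shedding genes none passed by limma (4 at an unadjusted p under 0.05; list median -0.03), and without chow 3 there were 2, both lower. Casp1, whose product cleaves pro-IL-1β and pro-IL-18, read 7.52, 7.54, 7.68 and 7.57 on HFD arrays 8, 10, 11 and 12, against 8.14, 7.95, 8.43 and 7.86 on chow arrays 1, 2, 3 and 5. The groups did not overlap, and the HFD arrays lay close to background. Its difference of -0.52 (SE 0.117) missed the threshold (adjusted p = 0.0535 by limma) and passed without chow 3 (-0.40, adjusted p = 0.00729) or without chow 5 (-0.60, adjusted p = 0.0312), and with array weights, trend and robust settings or probes at background dropped. Casp4, the gene of the caspase that senses cytosolic lipopolysaccharide, differed by -0.24 (adjusted p = 0.134; -0.17 and 0.0386 without chow 3), and also passed with array weights or with trend and robust settings. Nlrp3 and Pycard, which encode a sensor and the adaptor of the inflammasome, lay at background.

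Of 19 TNF receptor signalling and death pathway genes none passed by limma (4 at an unadjusted p under 0.05; list median -0.0077, or 0.0069 without chow 3), and without chow 3 there were 2 higher and 1 lower. Mlkl, the executor of necroptosis, averaged 10.76 ± 0.12 in HFD and 11.18 ± 0.24 in chow (-0.42, adjusted p = 0.112), and Cflar, which restrains caspase-8, averaged 7.95 ± 0.03 in HFD and 8.17 ± 0.12 in chow (-0.23, adjusted p = 0.0919). Mlkl passed without chow 5 (-0.53, adjusted p = 0.0132), with array weights (adjusted p = 0.033) and with trend and robust settings (adjusted p = 0.049). Cflar passed without chow 3 (-0.17, adjusted p = 0.0183) and with array weights (adjusted p = 0.0287). Of 22 other TNF superfamily ligands and receptors 16 lay at background and 1 fell, Cd40, a receptor gene of antigen-presenting cells. Cd40 read 7.66, 7.62, 7.73 and 7.71 on HFD arrays 8, 10, 11 and 12, against 7.99, 8.00, 8.35 and 8.03 on chow arrays 1, 2, 3 and 5. The groups did not overlap, and chow 3 was the highest. The difference was -0.42 (SE 0.081, adjusted p = 0.0293 by limma), and the call ended without chow 2, chow 5, HFD 8, HFD 10, HFD 11 or HFD 12 (largest adjusted p 0.102). Without chow 3, Tnfrsf12a was called higher as well. The list median was -0.0032, or 0.0044 without chow 3.

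Of 17 IKK and NF-kB genes 1 fell, Nfkbiz, or 4 without chow 3, and the list median was -0.04. Nfkbiz encodes a nuclear IκB protein that IL-1 induces and that switches on secondary response genes. It read 8.78, 8.75, 8.88 and 8.81 on HFD arrays 8, 10, 11 and 12, against 10.01, 9.54, 9.87 and 10.12 on chow arrays 1, 2, 3 and 5. Every HFD array lay far below the lowest chow array, and here chow 5 was the highest. The difference was -1.08, a ratio of 0.473 (SE 0.113, adjusted p = 0.00199 by limma), and it kept its call under all 15 alternatives. Of 23 IL-1 and TNF target genes 6 fell and 1 rose, the same counts as without chow 3, around a list median of -0.03, or -0.0032 without chow 3. The monocyte attractant genes Ccl2 (-2.38) and Ccl7 (-2.28) and the serum amyloid gene Saa3 (-1.63, adjusted p = 0.0265) differed most among those called. Leaving out chow 1, 2 or 5 or HFD 10, 11 or 12 ended the Saa3 call (largest adjusted p 0.0654). The gene that rose was Lcn2, which encodes a secreted lipocalin (0.18, adjusted p = 0.0346), and 9 of 15 alternatives ended its call (largest adjusted p 0.176). Its values, 14.78 to 14.83 in HFD and 14.54 to 14.68 in chow, lay near the top of the arrays' range, so the size of its difference is uncertain. The acute phase gene Saa1 read 13.41, 14.24, 13.81 and 14.13 on HFD arrays 8, 10, 11 and 12, against 13.46, 12.99, 10.67 and 12.94 on chow arrays 1, 2, 3 and 5. Its groups overlapped, and the difference was 1.38 (adjusted p = 0.320), or 0.77 without chow 3 (adjusted p = 0.0544). The acute phase genes Hp and Saa2 differed by 0.67 (adjusted p = 0.529; 0.32 without chow 3) and 0.31 (adjusted p = 0.672; 0.20 without chow 3).

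**Figure D5:**
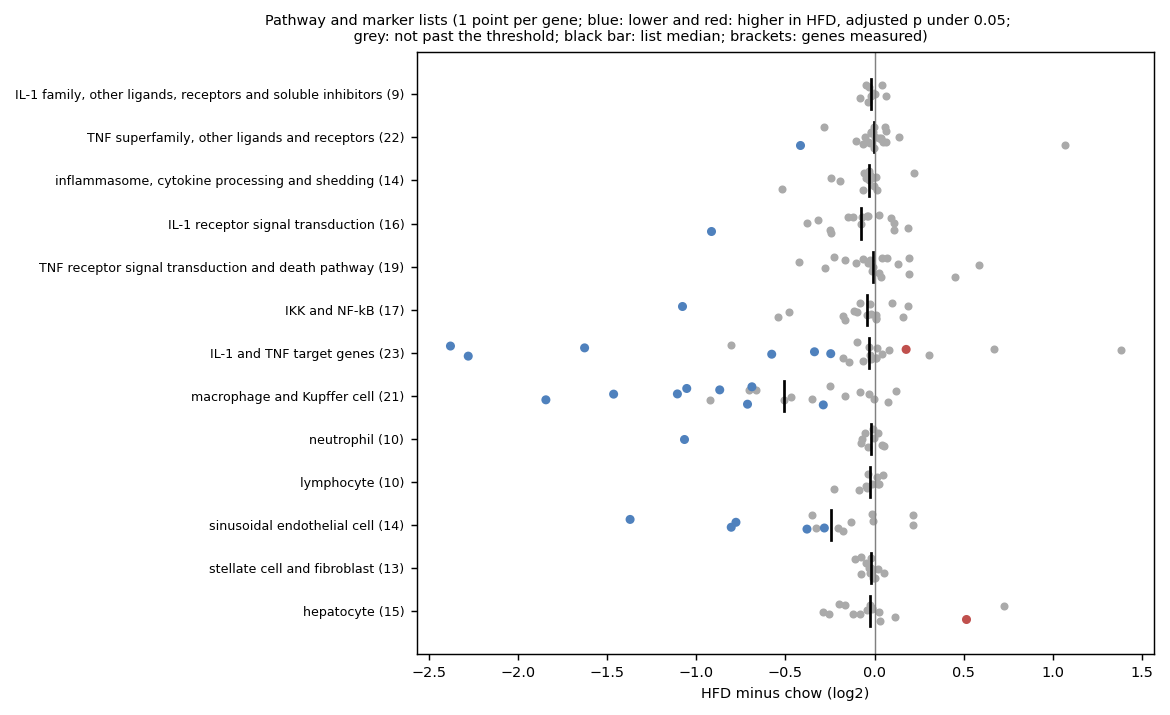
Difference of HFD minus chow (log2) for each measured gene of the 7 pathway lists and the 6 cell type marker lists, with list medians as black bars. Called genes, in blue where lower and red where higher in HFD, are few in the signalling lists, and the medians of the macrophage (-0.51) and sinusoidal endothelial (-0.24) lists stand left of 0.

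The genes whose profile over the 8 arrays was most like those of the called genes were sought among 10322 other genes above background. Likeness was the root mean square distance between levels after each gene's own mean was removed. Closest to Il1rap were Rgl1 (0.051), Atp6v0d1 (0.052) and Ms4a7 (0.055), and closest to Il1rn were Prkg2 (0.023), Armc8 (0.038) and Ifi27l2a (0.038). With the mean of all their probes Atp6v0d1 differed by 0.046 and Armc8 by 0.0026, so these similarities rested on single probes.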

How the data were processed

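Total RNA of cultured primary hepatocytes was hybridised to Cy3 Illumina bead arrays of 1 channel, 4 HFD and 4 chow. The deposited table holds log2 values made by the authors with lumi, per the submitters' processing notes; no source used here gives its version and steps, detection calls, slides or a genome build. The unit was inferred from the range of the values, which ran from 7.23 to 14.91 on each array. Sorted values differed from the 8-array mean by at most 0.0026, so the arrays already shared 1 distribution, which removes any shift of all genes, and they were not normalized again. Whether the scale is variance-stabilised is unknown, and dim probes understate a change. No count depth exists for arrays, and their number limits the precision.

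Probes took their gene from the platform annotation, updated through RefSeq (GRCm38.p6, names only), which named 35784 probes with 1 symbol each and left 9497 unnamed. A gene was represented by the probe brightest on average. A probe named Il1rap only through an older symbol lay at background and entered only the mean of all probes. The diets were compared with limma 3.58.1 (R 4.3.3; HFD minus chow, lmFit, eBayes without trend, 2-sided, no covariate), tested on simulated data, with exact permutation tests over 70 assignments for single genes. Named genes were the 10 genes, from each list up to 3 called genes with the largest difference or else the 2 with the smallest p, and the 3 most similar profiles per called gene; Il1r2, Lcn2, Clec4g, Tnfrsf12a, Tnfaip3, Bcl3, Ikbkg, Fadd, Map3k5, Saa1, Saa2, Hp, Clec4f, Vsig4, Stab1, Cd5l, Timd4, Ptprc, Itgam, Nlrp3 and Pycard were named in addition, after their values were seen. Cd14, Cd68, Lyz2, S100a9, Apoa1 and Apoa2 were also named after their values were seen. The genes and lists were chosen with earlier results of these data known. Figures used matplotlib 3.10.9.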

Additional observations from a re-analysis of the deposited data

How the results depend on the processing

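No paired analysis was possible because the HFD and chow arrays share no replicate numbers. Leaving out 1 array at a time gave 447 (without HFD 12) to 1861 (without chow 3) differing genes against 820, with 157 to 981 higher against 299 and 290 to 880 lower against 521, and 415 to 2701 differing probes against 945. Of the 10 genes 1 to 4 then differed against 2, with 0 to 1 higher and 1 to 3 lower. The differences ranged from -0.44 to -0.30 for Il1rn, -0.41 to -0.27 for Il18, 0.062 to 0.14 for Il33, 0.0062 to 0.065 for Il1a, -0.076 to -0.033 for Il1b, -0.097 to -0.053 for Tnf, -0.13 to -0.047 for Tnfrsf1b, -0.0011 to 0.025 for Il1r1 and -0.16 to 0.18 for Tnfrsf1a. With array weights, where chow 3 had a weight of 0.192, 1603 genes differed (771 higher, 832 lower) and 1894 probes, Il18 passed (-0.31), and Il1r1 (-0.00036) and Tnfrsf1a (-0.088) turned negative. Il18 also passed with probes at background dropped (-0.34; fewer genes were tested) and with the mean of all probes of a gene (-0.17), under which Il1a turned negative (-0.025) and Armc8 (0.0026) and Atp6v0d1 (0.046) positive. The cause of these changes was not tested. Renormalization, another centring, trend and robust settings and a stricter filter changed no call of the 10 genes, but the stricter filter left out Il1r1, Il33 and Tnfrsf1b, and both filters left out Il1a, Il1b and Tnf. Of 435 values of other named genes under all alternatives, 385 kept their direction and side of the threshold, 27 lost and 21 gained a call, and 2 turned. Of 207 values of 14 genes named after their values were seen, 179 kept both, 9 lost and 17 gained a call, and 2 turned, both of Ikbkg (0.0088 with the mean of all probes, and -0.19 to 0.049 with 1 array left out).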

Other observations

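Some genes of the TNF and NF-kB lists missed the limma threshold with all 8 arrays and passed it without chow 3, and they are named here after their values were seen. Tnfrsf12a, the receptor gene of the cytokine TWEAK, read 12.28, 12.23, 11.95 and 12.27 on HFD arrays 8, 10, 11 and 12, against 11.83, 11.41, 9.52 and 11.69 on chow arrays 1, 2, 3 and 5. All HFD values lay above all chow values, with chow 3 far below the rest. The difference was 0.54 without chow 3 (adjusted p = 0.0192) and 1.07 with it (adjusted p = 0.368), and no other alternative of 15 gave a call. Tnfaip3, the gene of the A20 enzyme that ends NF-kB signalling, read 8.61, 8.68, 8.80 and 8.62 on HFD arrays 8, 10, 11 and 12, against 8.98, 9.15, 9.51 and 8.98 on chow arrays 1, 2, 3 and 5. The groups did not overlap, and the difference was -0.36 without chow 3 (adjusted p = 0.00759) and -0.48 with it (adjusted p = 0.0729). Tnfaip3 passed under 5 of 15 alternatives, with adjusted p-values from 0.00759 to 0.200 over all of them.

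Bcl3, which encodes a nuclear IκB relative, differed by -0.40 without chow 3 (adjusted p = 0.00444) and by -0.54 with it (adjusted p = 0.0869), and it passed under 5 of 15 alternatives. Ikbkg, the regulatory IKK subunit gene, differed by -0.19 without chow 3 (adjusted p = 0.0424) but by -0.04 with it (adjusted p = 0.955), so its call rested on leaving out that array. Fadd, the adaptor gene for caspase-8, differed by 0.24 without chow 3 (adjusted p = 0.0424) and by 0.19 with it (adjusted p = 0.202), and it also passed with array weights. Map3k5, a stress kinase gene, differed by 0.14 without chow 3 (adjusted p = 0.0495) and by 0.19 with it (adjusted p = 0.112). No gene of the pathway or marker lists that passed with all 8 arrays lost its call without chow 3.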
